A study of Saccharomyces cerevisiae with 12 samples.

Results

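The 45 genes described here encode proteins of the budding yeast cell wall and the enzymes that build, cross-link or cut it. They were taken by name as 14 mannoproteins, the 4 genes of the PIR family, 15 genes of glucan synthesis and remodelling, and 12 genes of chitin synthesis and daughter-cell separation. All 45 were found among 7109 gene identifiers, and all 45 were among the 6463 genes with enough counts to be tested. No measured value chose them, but the list was drawn up with earlier results of the same libraries known.

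Poly(A) RNA was sequenced from 12 cultures of the strain BY4741, a haploid laboratory yeast of mating type a. The groups were untreated wild type (WT), wild type after 90 min of methyl methanesulfonate (WT_MMS), an untreated HEL2 deletion strain (hel2) and that strain after the same treatment (hel2_MMS), with 3 libraries labelled as biological replicates in each. Methyl methanesulfonate (MMS) alkylates DNA and RNA, and HEL2 encodes the ubiquitin ligase that recognises collided ribosomes. Cultures grew in rich medium until their optical density reached about 0.5, treatment was at 30 °C, and the labels give no MMS dose. The labels do not say whether the deletion strain was 1 clone. They give no time or temperature for the untreated cultures, so whether these were held for the same 90 min is not known. Changes with MMS therefore compare cultures treated for 90 min with untreated ones of unstated time, and further growth cannot be told apart from MMS.

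The yeast wall is a net of glucan and a little chitin, covered outside by heavily mannosylated proteins. Most mannoproteins hang on the glucan through the remnant of a lipid anchor, while PIR proteins are joined to it directly, and a set of transferases and hydrolases opens and rejoins the net as the bud grows. Wall stress is signalled by the cell wall integrity kinase cascade, and after division the daughter cell makes the enzymes that cut it free from its mother.

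Levels are given as CPM, counts scaled to a common library total by TMM, a method that sets the bulk of genes level between libraries. Changes are log2 fold changes ± SE from edgeR's quasi-likelihood test, with p-values adjusted by Benjamini-Hochberg over all 6463 genes, and a gene passed at an adjusted p under 0.05. CPM values are not corrected for gene length, so levels of different genes are not compared. The p-values measure the spread between the labelled replicates, and the labels do not describe how separate these were.

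The libraries held from 36472686 to 53638964 counts, and the lowest count of any wall gene in any library was 85. HEL2 counts ran from 928 to 2431 in wild type libraries and from 19 to 39 where the gene was deleted. The strains also differed at the marker LEU2, where wild type libraries had 2 to 28 counts and deletion libraries 19374 to 28105, so no difference between them can be tied to HEL2 alone. Library WT_MMS_1 stood apart from its group. Deviations were taken on the log2 scale from the mean of the other libraries of the same group. Their standard deviation over all genes was 0.493 for WT_MMS_1 and 0.256 to 0.374 for the others. Wall genes of WT_MMS_1 lay above the mean of its partner libraries by a median of 0.40. Markers of a cells summed to between 1908 and 3073 CPM and markers of alpha cells to between 48.0 and 123 CPM, with the highest alpha sums in the MMS groups. Their part in the results was not tested.

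Wall genes made up a large slice of the counts in every library, and that unscaled slice moved in opposite directions in the strains when MMS was given. Without scaling, the 45 genes took 6.54%, 5.94% and 6.02% of all counts in WT and 8.87%, 7.78% and 7.35% in WT_MMS. Their share was 6.40%, 6.87% and 6.19% in hel2 and 5.63%, 5.69% and 5.58% in hel2_MMS. The treated wild type libraries thus lay above every other library and the treated deletion libraries below every other one. The rise in the wild type holds for unscaled shares only. TMM factors were 0.817 to 0.852 in WT and 0.890 to 1.11 in WT_MMS, and with them the 2 wild type groups overlap. The median TMM-scaled log2 fold change of the wall genes there was -0.02. The 15 glucan genes took 1.16% to 1.33% of counts in WT and 1.35% to 1.49% in WT_MMS, but 1.21% to 1.32% in hel2 and 0.712% to 0.743% in hel2_MMS. The abundant mannoprotein CCW12 alone took 2.19% to 2.41% in WT and 1.49% to 1.58% in hel2_MMS.

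In the wild type, MMS raised 14 of the 45 genes and lowered 17, close to the background of 35.6% of all tested genes higher and 34.2% lower (69.9% in either direction). The median log2 fold change was -0.02 for the wall genes and 0.02 for all genes. In the deletion strain, MMS raised 10 and lowered 29, where 39.2% of all genes rose and 36.2% fell (75.4% in either direction). There the median of the wall genes was -1.24 and that of all genes 0.06. The strains differed in the size of the MMS effect for 35 of the 45, with 30 more negative in the deletion strain and 5 more positive, against 21.5% and 18.6% of all genes (40% in either direction). The median difference was -0.97 for the wall genes and -0.01 for all genes. The comparison of the strains under MMS shares its treated libraries with these contrasts, and it found 10 wall genes higher and 27 lower in the deletion strain, against 32% and 29.8% of all genes (61.9% in either direction).

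**Figure D1:**
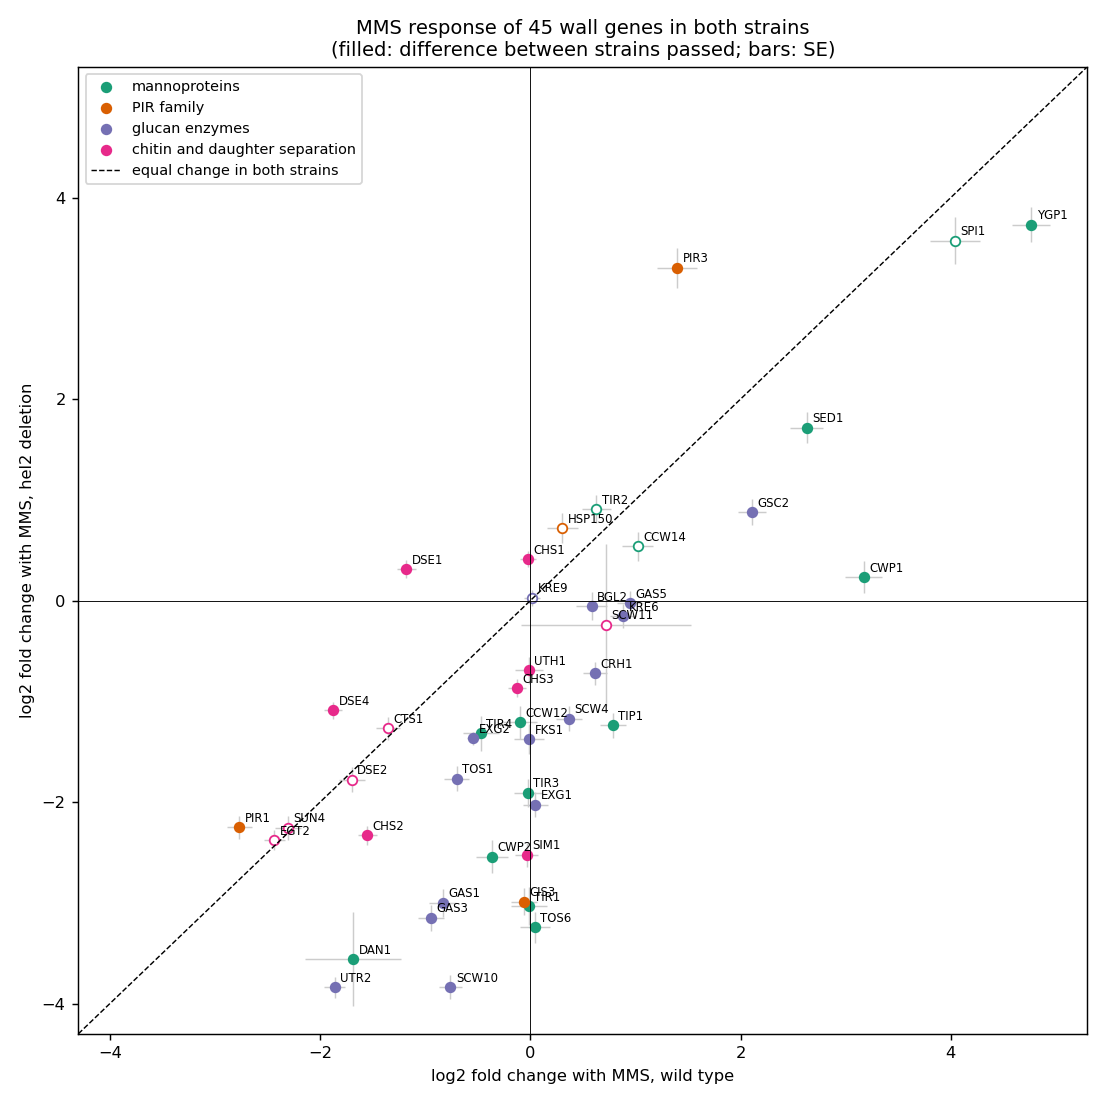
Log2 fold change with MMS in the wild type (x axis) and in the hel2 deletion strain (y axis) for each of the 45 wall genes, coloured by class, with bars of 1 SE and a dashed line where both strains change equally. Filled points passed the test of the difference between strains; 30 of them lie below the line and 5 above it.

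The responses were related but not the same. Of the 45 genes, 7 rose in both strains, 16 fell in both, 3 rose in the wild type and fell in the deletion strain (TIP1, SCW4 and CRH1), and 1 did the reverse (DSE1). A further 10 passed as lower in the deletion strain but did not pass in the wild type: CCW12, TIR1, TIR3, TOS6, CIS3, EXG1, FKS1, SIM1, UTH1 and CHS3. For all 10 the difference between strains passed as well. That test contrasts the same MMS effects by which the 10 were picked, in the same libraries, so it is no separate check. How often these joint patterns occur among all genes was not counted, so the numbers describe the wall genes only. Across the 45 genes the MMS effects of the strains had a Pearson's r of 0.76 and a Spearman's rho of 0.70, and across all 6463 genes 0.82 and 0.83, as a description in which genes are not independent replicates.

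YGP1 and SPI1, mannoproteins of stress and stationary phase, rose most among the 45 genes in both strains. YGP1, a secreted glycoprotein made when nutrients run out, had 92.0, 89.8 and 89.0 CPM in WT, 3126, 1938 and 2293 in WT_MMS, 243, 331 and 300.1 in hel2 and 3928, 3789.8 and 3892 in hel2_MMS. Every treated library lay above every untreated one in both strains, and the deletion strain lay above the wild type in both conditions. The log2 fold change with MMS was 4.76 ± 0.18 in the wild type (adjusted p = 1.49e-10) and 3.73 ± 0.17 in the deletion strain (adjusted p = 3.24e-10), a difference of -1.03 ± 0.22 (adjusted p = 0.00247). SPI1, an anchored wall protein of weak-acid and stationary-phase stress, had 27.0, 24.3 and 23.3 CPM in WT, 569, 299.8 and 360.4 in WT_MMS, 48.6, 76.7 and 52.4 in hel2 and 727, 666 and 717 in hel2_MMS. It rose by 4.04 ± 0.24 and 3.57 ± 0.23 on the log2 scale (adjusted p = 1.06e-08 and 1.71e-08), and the strains' effects were not shown to differ (-0.47 ± 0.30, adjusted p = 0.235). SPI1 was higher in the deletion strain under MMS by 0.78 ± 0.21 (adjusted p = 0.00667), a call lost without WT_MMS_2 and hel2_MMS_3 together (adjusted p = 0.0518).

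SED1, the main mannoprotein of stationary-phase walls, rose as well. It had 1924, 1686 and 1473 CPM in WT, 13259.5, 8772 and 9386 in WT_MMS, 2305, 2819.8 and 2439 in hel2 and 8728, 8215 and 7929 in hel2_MMS. The treated libraries lay above the untreated ones in both strains, with log2 fold changes of 2.63 ± 0.16 in the wild type (adjusted p = 9.89e-09) and 1.72 ± 0.16 in the deletion strain (adjusted p = 3.24e-07). The rise was smaller in the deletion strain, with a difference of -0.91 ± 0.21 (adjusted p = 0.00495). Between the treated strains SED1 did not pass at -0.34 ± 0.15 (adjusted p = 0.0703), although its libraries did not overlap, and it passed without WT_MMS_2 (adjusted p = 0.0241), with RLE scaling (adjusted p = 0.0477) and with DESeq2 (adjusted p = 0.024). CCW14, a mannoprotein of the inner wall layer, rose in both strains, from a range of 719 to 989.5 CPM to 1454 to 2101 in the wild type and from 785 to 902 to 1222 to 1264 in the deletion strain. Its effects of 1.02 ± 0.14 and 0.54 ± 0.14 were not shown to differ (-0.48 ± 0.20, adjusted p = 0.0741), but the difference passed when each of WT_1 and WT_MMS_2 was left out in turn (adjusted p from 0.0277 to 0.0333) and with DESeq2 (adjusted p = 0.0399).

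CWP1 and CWP2 are neighbouring genes for major structural mannoproteins of the wall, CWP1 being the one that sits at birth scars. Their responses to MMS differed. CWP1 had 197, 188 and 175 CPM in WT, 2197, 1459 and 1379 in WT_MMS, 283, 306 and 358 in hel2 and 423, 349 and 340.3 in hel2_MMS. In the wild type every treated library was far above every untreated one, a 9.00-fold change (3.17 ± 0.17 on the log2 scale, adjusted p = 3.76e-09). In the deletion strain the treated and untreated libraries overlapped, the change was 0.23 ± 0.16 (adjusted p = 0.205), and it passed only without WT_MMS_1 (adjusted p = 0.0366) and with library-size scaling (0.79). The MMS effect on CWP1 was smaller in the deletion strain, with a difference of -2.94 ± 0.23 (adjusted p = 2.15e-06).

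CWP2 went the other way. It had 14364, 14008 and 12875 CPM in WT, 13399, 10336 and 8355 in WT_MMS, 10334, 13076 and 12047 in hel2 and 2241, 1999 and 1851 in hel2_MMS. The wild type groups overlapped and the treated deletion libraries lay below all others. It fell by 2.54 ± 0.16 on the log2 scale in the deletion strain (adjusted p = 8.5e-09) and the difference between strains was -2.18 ± 0.22 (adjusted p = 1.3e-05). The wild type change of -0.36 ± 0.15 passed narrowly (adjusted p = 0.0492) and was lost when each of WT_1, WT_2, WT_3, WT_MMS_2, WT_MMS_3, hel2_2, hel2_3, hel2_MMS_1, hel2_MMS_2 and hel2_MMS_3 was left out in turn (adjusted p from 0.056 to 0.197), with RLE scaling (adjusted p = 0.0578), with limma-voom (adjusted p = 0.0509), without a filter (adjusted p = 0.0506), with the stricter filter (adjusted p = 0.0526), in a fit of the compared libraries only (adjusted p = 0.0955) and without WT_MMS_2 and hel2_MMS_3 together (adjusted p = 0.117), as it was with library-size scaling (-0.07). Without WT_MMS_1 it was -0.56.

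CCW12, a small mannoprotein placed where the wall grows, had 29495, 26464 and 25643 CPM in WT, 34122, 21518 and 20394 in WT_MMS, 25027, 29332 and 26344 in hel2 and 11694, 12009 and 11249.5 in hel2_MMS. The treated deletion libraries were below all 9 others, while the other groups overlapped. Its change was -0.10 ± 0.16 in the wild type (adjusted p = 0.594) and -1.21 ± 0.16 in the deletion strain (adjusted p = 1.76e-05), with a difference of -1.11 ± 0.23 (adjusted p = 0.00233). The wild type libraries were uneven, and without WT_MMS_1 CCW12 passed as lower there as well, at -0.38 (adjusted p = 0.00241). TOS6, a little-studied anchored wall protein, showed the same contrast more sharply. It had 279, 264 and 231 CPM in WT, 321, 265 and 211 in WT_MMS, 244, 243 and 275 in hel2 and 28.5, 29.6 and 22.5 in hel2_MMS. Here the wild type change was 0.04 ± 0.14 (adjusted p = 0.81; 0.34 and past the threshold with library-size scaling), that of the deletion strain -3.24 ± 0.16 (adjusted p = 5.14e-10), and the difference of -3.28 ± 0.21 was the most negative among the 45 genes (adjusted p = 4.56e-07).

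TIP1, TIR1, TIR2, TIR3, TIR4 and DAN1 belong to a family of serine-rich mannoproteins induced by cold or by lack of oxygen, and they did not move as a block. TIP1 had 753, 626 and 605 CPM in WT, 1346, 1092 and 984 in WT_MMS, 662, 689 and 642 in hel2 and 302, 285 and 257 in hel2_MMS. It rose by 0.79 ± 0.12 in the wild type (adjusted p = 6.49e-05) and fell by 1.24 ± 0.12 in the deletion strain (adjusted p = 7.39e-07), with no overlap in either, and the difference was -2.02 ± 0.17 (adjusted p = 3.63e-06). TIR1 had 191, 146 and 123 CPM in WT, 175, 161 and 120.2 in WT_MMS, 162, 189 and 218 in hel2 and 21.0, 26.4 and 22.1 in hel2_MMS. The wild type groups overlapped, with a change of -0.01 ± 0.17 (adjusted p = 0.951), and the deletion strain fell by 3.03 ± 0.19 (adjusted p = 6.55e-09). TIR3 followed TIR1, at -0.02 ± 0.13 in the wild type (adjusted p = 0.888) and -1.91 ± 0.14 in the deletion strain (adjusted p = 3e-08), from 31.9 to 36.9 CPM to 8.82 to 9.59. The differences were -3.02 ± 0.25 for TIR1 (adjusted p = 3.09e-06) and -1.88 ± 0.19 for TIR3 (adjusted p = 1.3e-05).

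TIR2 and TIR4, which are neighbours on the chromosome, changed in opposite directions. TIR2 had few counts, at 9.33 to 11.0 CPM in the untreated wild type, and rose in both strains by 0.63 ± 0.14 (adjusted p = 0.00127) and 0.91 ± 0.14 (adjusted p = 5.4e-05). Its difference of 0.28 ± 0.20 did not pass (adjusted p = 0.283), but did without WT_MMS_1 (adjusted p = 0.0228) and with library-size scaling (0.54). TIR4 had 41.2, 35.1 and 26.1 CPM in WT, 27.1, 24.5 and 22.2 in WT_MMS, 49.7, 53.3 and 68.9 in hel2 and 20.1, 26.8 and 22.1 in hel2_MMS. It fell by 1.32 ± 0.17 in the deletion strain (adjusted p = 1.11e-05) and ended at like levels in both strains, where the treated libraries overlapped. In the wild type it changed by -0.47 ± 0.17 (adjusted p = 0.0254) with overlapping groups, a call lost when each of WT_1, WT_2, WT_MMS_2 and WT_MMS_3 was left out in turn (adjusted p from 0.0516 to 0.13) and without WT_MMS_2 and hel2_MMS_3 together (adjusted p = 0.0642), as it was with library-size scaling (-0.16). The difference for TIR4 was -0.85 ± 0.24 (adjusted p = 0.0137; not passed with library-size scaling).

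DAN1, the best known of the anaerobic members, was the most variable. It had 11.4, 13.0 and 7.40 CPM in WT, 4.10, 4.27 and 1.61 in WT_MMS, 22.4, 33.1 and 60.6 in hel2 and 2.22, 4.19 and 3.41 in hel2_MMS. The deletion strain started above the wild type, and after MMS the strains overlapped at a few CPM. Its changes were -1.69 ± 0.46 in the wild type (adjusted p = 0.00673) and -3.56 ± 0.47 in the deletion strain (adjusted p = 3.62e-05). The difference of -1.87 ± 0.63 (adjusted p = 0.0357) was lost when each of WT_1, WT_3, WT_MMS_1, WT_MMS_2, hel2_3, hel2_MMS_1 and hel2_MMS_3 was left out in turn (adjusted p from 0.0607 to 0.115), with limma-voom (adjusted p = 0.0812) and without WT_MMS_2 and hel2_MMS_3 together (adjusted p = 0.133).

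**Figure D2:**
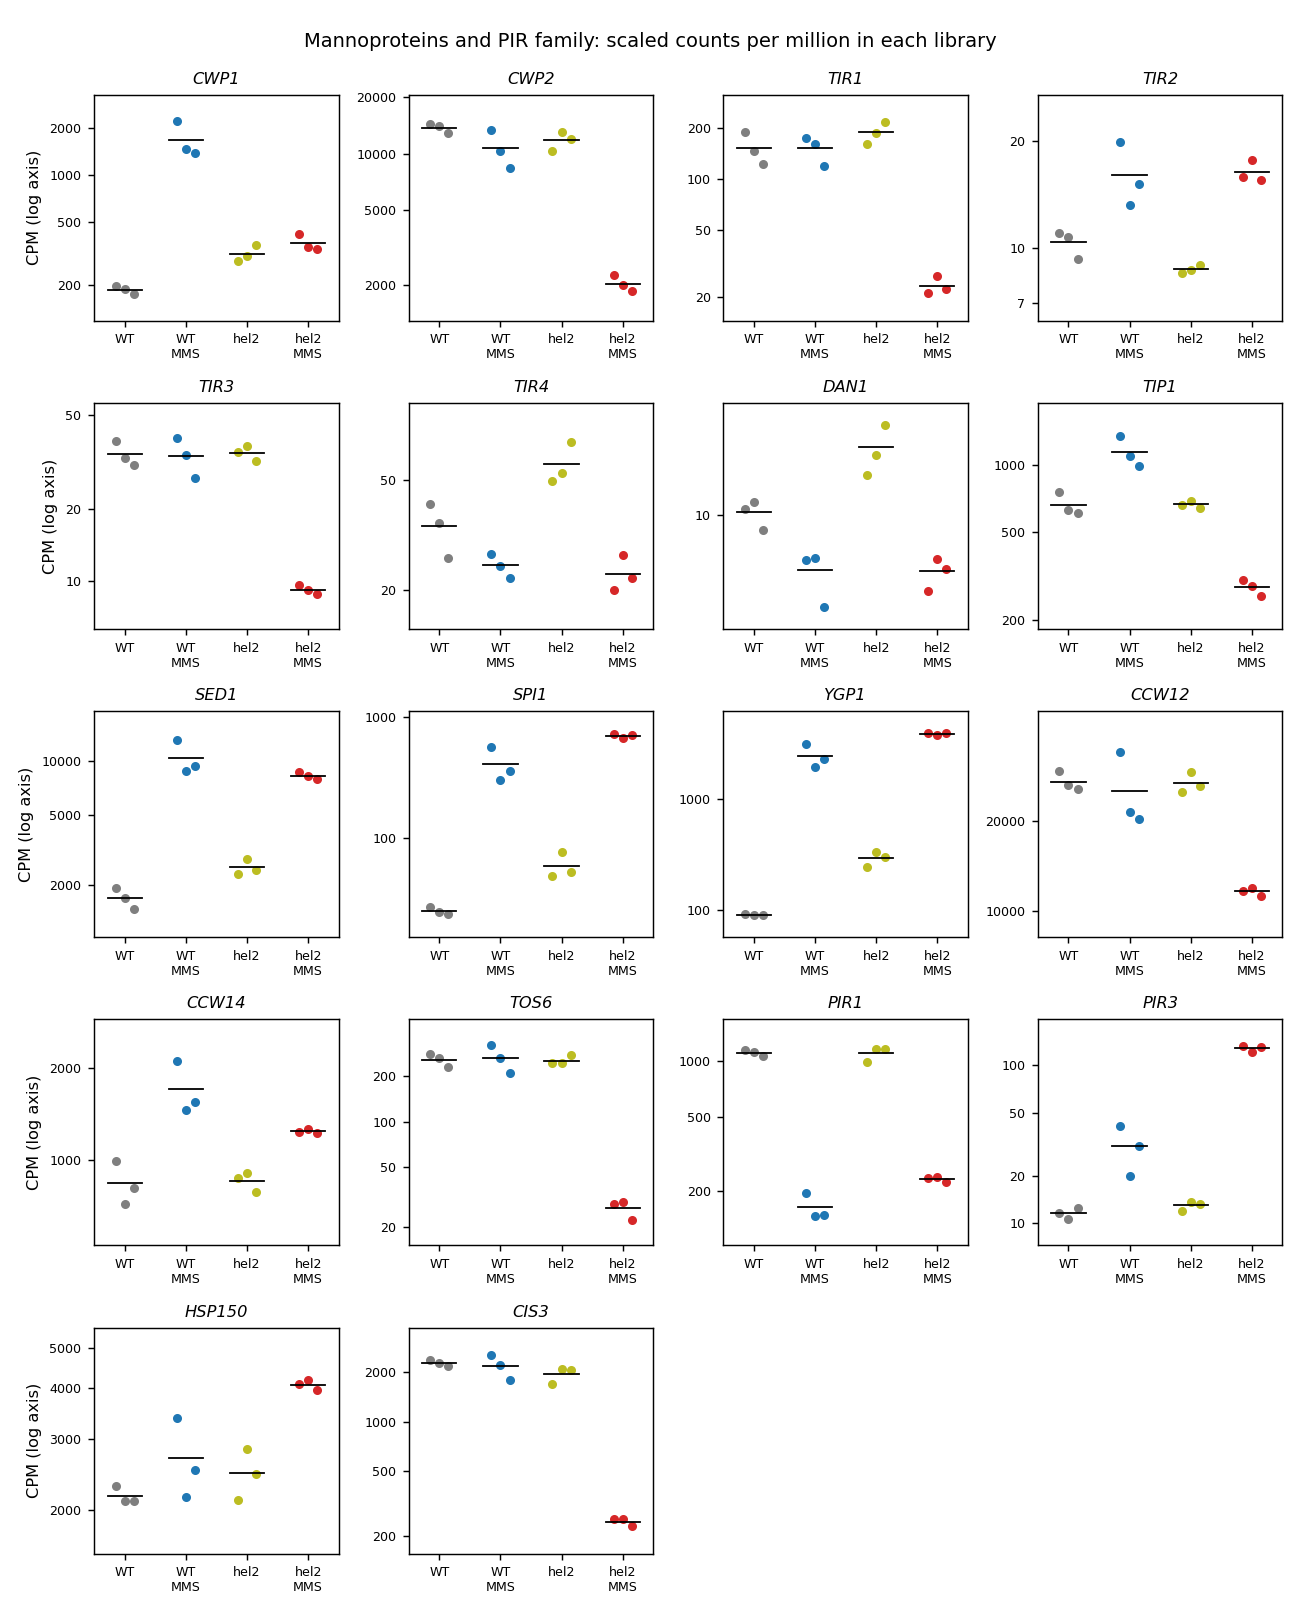
CPM (log axes, differing between panels) in each of the 12 libraries for the 14 mannoprotein genes and the 4 PIR genes; points are libraries in replicate order and lines are group means. TIP1, TIR1, TIR3, TOS6, CWP2, CCW12 and CIS3 have their 3 treated deletion libraries below the other 9, whereas SPI1, YGP1, HSP150 and PIR3 have theirs above them.

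The PIR genes lie as 2 neighbouring pairs. With MMS, PIR1 and PIR3 changed in opposite directions in both strains, and HSP150 and CIS3 did so in the deletion strain. PIR1 had 1156, 1119.6 and 1074 CPM in WT, 195, 147 and 149.5 in WT_MMS, 999, 1160.4 and 1169 in hel2 and 237, 238 and 224 in hel2_MMS. It fell in both strains with no overlap, with log2 fold changes of -2.77 ± 0.12 in the wild type (adjusted p = 3.73e-10) and -2.25 ± 0.11 in the deletion strain (adjusted p = 8.2e-10). Its neighbour PIR3 had 11.7, 10.7 and 12.5 CPM in WT, 41.2, 20.0 and 31.0 in WT_MMS, 11.9, 13.7 and 13.4 in hel2 and 132, 122 and 131 in hel2_MMS. PIR3 rose by 1.40 ± 0.19 in the wild type (adjusted p = 2.32e-05) and by 3.30 ± 0.20 in the deletion strain (adjusted p = 5.16e-09), and it was the wall gene whose MMS effect was most raised in the deletion strain, by 1.91 ± 0.27 (adjusted p = 0.000152). For PIR1 the difference was 0.52 ± 0.15 (adjusted p = 0.0171), a call lost without WT_MMS_2 and hel2_MMS_3 together (adjusted p = 0.0518).

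HSP150 and CIS3 form the other pair. CIS3, an abundant PIR protein of growing cells, had 2384, 2279 and 2179.9 CPM in WT, 2546, 2216 and 1799 in WT_MMS, 1695, 2096 and 2073 in hel2 and 254, 255 and 230.0 in hel2_MMS. The treated deletion libraries stood far below the rest, with a log2 fold change of -2.99 ± 0.13 (adjusted p = 2.73e-10) against -0.06 ± 0.12 in the wild type (adjusted p = 0.684; 0.24 and past the threshold with library-size scaling). The difference was -2.93 ± 0.18 (adjusted p = 3.78e-07). HSP150, a heat-inducible PIR protein, had 2298, 2106 and 2114 CPM in WT, 3377, 2154 and 2515 in WT_MMS, 2125, 2831 and 2461 in hel2 and 4073, 4175 and 3938 in hel2_MMS. It rose in the deletion strain by 0.72 ± 0.15 (adjusted p = 0.00067) without overlap. In the wild type it was at 0.30 ± 0.15 (adjusted p = 0.083) and passed without WT_MMS_2 (adjusted p = 0.0134) and without WT_MMS_2 and hel2_MMS_3 together (adjusted p = 0.0196), and with library-size scaling (0.59). The difference of 0.41 ± 0.21 did not pass (adjusted p = 0.135), but did without WT_MMS_1 (adjusted p = 0.0038) and with library-size scaling (0.69).

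Ratios of counts within a library show these exchanges without any scaling between libraries. They are read only as changes between libraries, since gene lengths differ. PIR3/PIR1 went from 0.0104 ± 0.00107 to 0.185 ± 0.0424 in the wild type (SD, n = 3 libraries) and from 0.0117 ± 0.000272 to 0.551 ± 0.0360 in the deletion strain, 17.7 and 47.0 times higher. CWP1/CWP2 went from 0.0136 ± 0.000147 to 0.157 ± 0.0135 in the wild type and from 0.0268 ± 0.00318 to 0.182 ± 0.00699 in the deletion strain. The ratio rose in the wild type mainly with more CWP1 and in the deletion strain mainly with less CWP2. HSP150/CIS3 hardly moved in the wild type, from 0.953 ± 0.0249 to 1.23 ± 0.228, and rose 13.1 times in the deletion strain, from 1.26 ± 0.0820 to 16.5 ± 0.561. TIR2/TIR1 rose 1.55 and 15.2 times.

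**Figure D3:**
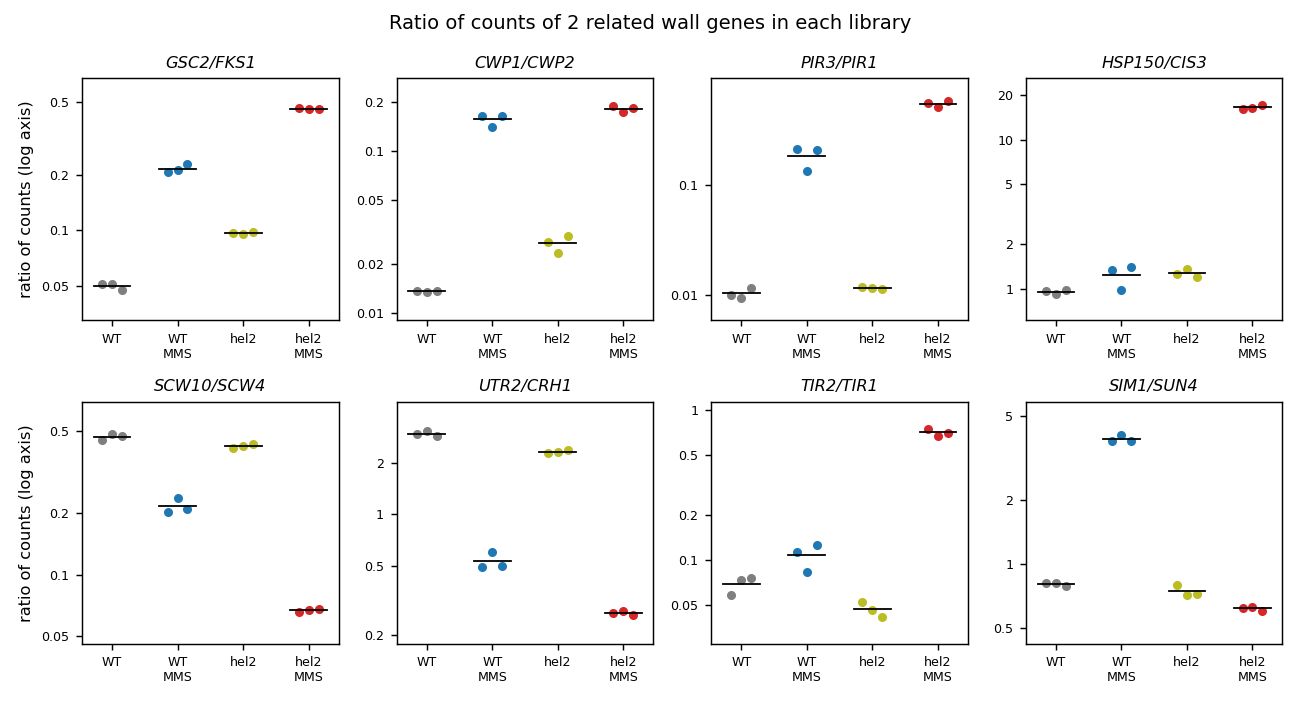
Ratio of the counts of a pair of related wall genes in each library (log axes, differing between panels); points are libraries and lines group means. GSC2/FKS1, CWP1/CWP2 and PIR3/PIR1 are higher with MMS in both strains, HSP150/CIS3 and TIR2/TIR1 are far higher in treated deletion libraries than elsewhere, and SIM1/SUN4 is high in treated wild type libraries.

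Glucan genes gave the most uniform contrast between strains. A more negative MMS effect in the deletion strain was called for 14 of the 15, against 21.5% of all genes. The same 14 were lower there than in the treated wild type, against 29.8% of all genes. In the wild type alone 6 rose, 6 fell and 3 did not pass, near the 35.6% higher and 34.2% lower of all genes. In the deletion strain 1 rose, 10 fell and 4 did not pass, where 39.2% of all genes rose and 36.2% fell. The class median there was -1.37. KRE9, a secreted protein needed for the branched glucan, was the exception in the difference of MMS effects and between the treated strains: it held 225, 200.4 and 203 CPM in WT, 226, 195 and 216 in WT_MMS, 190.0, 215 and 187 in hel2 and 200.3, 201 and 203 in hel2_MMS, all groups overlapping. Its changes of 0.02 ± 0.08 and 0.03 ± 0.08 did not pass (adjusted p = 0.844 and 0.755), but with library-size scaling they were 0.33 and 0.59 and passed, and the treated strains then differed by 0.27.

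FKS1 and GSC2 encode alternative catalytic subunits of glucan synthase, FKS1 that of growing cells and GSC2 that induced by wall stress and starvation. GSC2 had 95.7, 75.0 and 81.3 CPM in WT, 447, 302 and 338 in WT_MMS, 138, 152 and 148 in hel2 and 271, 272 and 259.6 in hel2_MMS. It rose by 2.11 ± 0.13 in the wild type (adjusted p = 1.27e-08) and by 0.88 ± 0.13 in the deletion strain (adjusted p = 3.41e-05), without overlap. FKS1 had 1875, 1477 and 1721 CPM in WT, 2147, 1412 and 1473 in WT_MMS, 1432, 1598 and 1504 in hel2 and 587, 596 and 566 in hel2_MMS. Its wild type groups overlapped, at -0.01 ± 0.14 (adjusted p = 0.949; -0.23 and past the threshold without WT_MMS_1, 0.27 and past it with library-size scaling), and the deletion strain fell by 1.37 ± 0.15 (adjusted p = 1.59e-06). The GSC2/FKS1 count ratio rose 4.37 times in the wild type, from 0.0497 ± 0.00212 to 0.217 ± 0.0109, and 4.76 times in the deletion strain, from 0.0966 ± 0.00155 to 0.459 ± 0.00257. The exchange was thus of like size in both strains, although the single genes differed, by -1.23 ± 0.18 for GSC2 (adjusted p = 0.000212) and -1.36 ± 0.20 for FKS1 (adjusted p = 0.00025). Under MMS GSC2 was lower in the deletion strain, at -0.44 ± 0.13 (adjusted p = 0.00958); without WT_MMS_1 this was -0.26, and with library-size scaling it did not pass.

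The glucanosyltransferases of the GAS family, which lengthen glucan chains, split. GAS1, the main one of growing cells, had 3605, 3158 and 3291 CPM in WT, 2243, 1817 and 1574 in WT_MMS, 2468, 3179 and 2924 in hel2 and 366, 362 and 345 in hel2_MMS. All treated libraries were below the untreated ones, with log2 fold changes of -0.84 ± 0.13 in the wild type (adjusted p = 7.17e-05) and -3.00 ± 0.14 in the deletion strain (adjusted p = 3.78e-10), and the difference was -2.16 ± 0.18 (adjusted p = 3.63e-06). GAS3 fell likewise, with log2 fold changes of -0.94 ± 0.12 (adjusted p = 1.11e-05) and -3.15 ± 0.13 (adjusted p = 1.13e-10), from 329.5 to 401 CPM to 41.8 to 42.6 in the deletion strain. GAS5 instead had 453, 385 and 402 CPM in WT, 973, 721 and 700.3 in WT_MMS, 353, 419 and 394 in hel2 and 375, 389 and 382 in hel2_MMS. It rose by 0.95 ± 0.12 in the wild type (adjusted p = 1.22e-05) and stayed within its untreated range in the deletion strain (-0.02 ± 0.12, adjusted p = 0.861; 0.54 and past the threshold with library-size scaling).

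GAS5 shared this pattern with KRE6, a protein of branched-glucan synthesis, and BGL2, a wall glucan transferase. KRE6 had 338, 287 and 307 CPM in WT, 699, 512 and 506 in WT_MMS, 287, 349 and 331 in hel2 and 284, 300.3 and 284 in hel2_MMS. It rose by 0.88 ± 0.12 in the wild type (adjusted p = 2.72e-05) and was at -0.15 ± 0.12 in the deletion strain (adjusted p = 0.266; 0.41 and past the threshold with library-size scaling). BGL2 rose by 0.58 ± 0.14 in the wild type (adjusted p = 0.0027; 0.38 without WT_MMS_1) and was at -0.05 ± 0.14 in the deletion strain (adjusted p = 0.74; 0.51 and past the threshold with library-size scaling). The differences were -0.97 ± 0.17 for GAS5 (adjusted p = 0.000779), -1.04 ± 0.17 for KRE6 (adjusted p = 0.000569) and -0.64 ± 0.20 for BGL2 (adjusted p = 0.0239). That of BGL2 was lost when each of WT_2, WT_3, hel2_2, hel2_3 and hel2_MMS_3 was left out in turn (adjusted p from 0.0537 to 0.0648). Under MMS BGL2 was lower in the deletion strain, at -0.54 ± 0.14 (adjusted p = 0.00544), -0.34 without WT_MMS_1, and did not pass with library-size scaling.

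SCW4 and SCW10 are close relatives that encode glucanase-like wall proteins. SCW10 had 946, 843 and 862 CPM in WT, 587, 533 and 446 in WT_MMS, 706, 878 and 799 in hel2 and 55.0, 58.3 and 53.6 in hel2_MMS. It fell in both strains without overlap, with log2 fold changes of -0.76 ± 0.11 in the wild type (adjusted p = 3.54e-05) and -3.84 ± 0.12 in the deletion strain (adjusted p = 1.56e-11), a difference of -3.08 ± 0.16 (adjusted p = 9.48e-08). SCW4 had 2080.3, 1742 and 1813 CPM in WT, 2905, 2259 and 2123 in WT_MMS, 1707, 2062 and 1831 in hel2 and 833, 862 and 792 in hel2_MMS. It rose by 0.37 ± 0.12 in the wild type (adjusted p = 0.0169), a call lost when each of WT_2, WT_3 and WT_MMS_1 was left out in turn (adjusted p from 0.0559 to 0.0711) and in a fit of the compared libraries only (adjusted p = 0.0547), and the change without WT_MMS_1 was 0.22. In the deletion strain SCW4 fell by 1.17 ± 0.12 (adjusted p = 1.64e-06), and the difference was -1.54 ± 0.18 (adjusted p = 3.16e-05). The SCW10/SCW4 count ratio fell from 0.471 ± 0.0149 to 0.216 ± 0.0178 in the wild type and from 0.425 ± 0.0112 to 0.0671 ± 0.000891 in the deletion strain. A dubious reading frame annotated as overlapping SCW10 held 316 to 679 counts per library, and how shared reads were counted is not given in the sources used here.

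CRH1 and UTR2 encode transglycosylases that join chitin to glucan. UTR2 had 1266, 1176 and 1157 CPM in WT, 366, 332 and 292 in WT_MMS, 849, 1019.9 and 948 in hel2 and 65.2, 67.3 and 64.1 in hel2_MMS. It fell, with log2 fold changes of -1.86 ± 0.10 in the wild type (adjusted p = 2.7e-09) and -3.84 ± 0.11 in the deletion strain (adjusted p = 6.29e-12), with no overlap, and the difference was -1.98 ± 0.14 (adjusted p = 8.23e-07). CRH1, which wall stress induces, had 433, 384 and 406 CPM in WT, 744, 546 and 584 in WT_MMS, 370.2, 443 and 401 in hel2 and 243, 246 and 246 in hel2_MMS. It rose by 0.62 ± 0.11 in the wild type (adjusted p = 0.000233) and fell by 0.72 ± 0.11 in the deletion strain (adjusted p = 4.89e-05), again without overlap, a difference of -1.34 ± 0.16 (adjusted p = 3.62e-05). The UTR2/CRH1 count ratio dropped in both strains, from 2.94 ± 0.108 to 0.534 ± 0.0647 in the wild type and from 2.32 ± 0.0375 to 0.267 ± 0.00699 in the deletion strain.

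The exoglucanases EXG1 and EXG2 and the wall protein TOS1 fell in the deletion strain as well. EXG1 went from 958 to 1122 CPM to 231 to 293 there (-2.02 ± 0.13, adjusted p = 6.66e-09), and was at 0.05 ± 0.12 in the wild type (adjusted p = 0.741; 0.35 and past the threshold with library-size scaling). EXG2 fell, with log2 fold changes of -0.54 ± 0.06 (adjusted p = 5.25e-06) and -1.37 ± 0.06 (adjusted p = 4.18e-10), and TOS1 with -0.70 ± 0.12 (adjusted p = 0.000164) and -1.77 ± 0.12 (adjusted p = 2.17e-08). None of these 3 genes had treated deletion libraries overlapping the treated wild type.

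Of the daughter-separation genes, EGT2, CTS1, DSE2 and DSE4 fell with MMS in both strains, and for the first 3 the strains were not shown to differ in that effect. EGT2, an anchored protein of the early daughter, had 1063, 927 and 974 CPM in WT, 204, 168 and 176 in WT_MMS, 1096, 1176 and 1159 in hel2 and 219.9, 238 and 202 in hel2_MMS. The treated libraries were below the untreated ones in both strains, with log2 fold changes of -2.44 ± 0.10 (adjusted p = 3.2e-10) and -2.38 ± 0.10 (adjusted p = 1.4e-10), with a difference of 0.06 ± 0.13 (adjusted p = 0.751). CTS1, the chitinase that cuts the septum, had 1714, 1498 and 1515 CPM in WT, 722, 577 and 546 in WT_MMS, 1909, 2175 and 2232 in hel2 and 883, 925 and 816 in hel2_MMS. It fell, with log2 fold changes of -1.36 ± 0.12 (adjusted p = 2.46e-07) and -1.27 ± 0.12 (adjusted p = 3.48e-07), with a difference of 0.09 ± 0.16 (adjusted p = 0.683). DSE2, a daughter-specific glucanase-like protein, fell, with log2 fold changes of -1.70 ± 0.12 (adjusted p = 4.06e-08) and -1.78 ± 0.12 (adjusted p = 1.73e-08), with a difference of -0.08 ± 0.17 (adjusted p = 0.729). These genes are expressed mainly in new daughter cells, and in RNA of whole cultures fewer cells of a type and less RNA per cell cannot be told apart. With library-size scaling the differences of EGT2 and CTS1 passed, at 0.31 and 0.35.

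DSE4 and DSE1 departed from them. DSE4, a daughter-specific glucanase, had 356, 319 and 325 CPM in WT, 102, 85.5 and 84.8 in WT_MMS, 361, 397 and 398 in hel2 and 181, 191 and 171 in hel2_MMS. It fell in both strains without overlap, with log2 fold changes of -1.88 ± 0.09 (adjusted p = 1.07e-09) and -1.09 ± 0.09 (adjusted p = 9.38e-08), and the difference of 0.79 ± 0.12 passed (adjusted p = 0.000333). DSE1, a daughter-specific protein of wall metabolism, had 189, 203 and 213 CPM in WT, 80.2, 93.1 and 93.6 in WT_MMS, 312, 251 and 281 in hel2 and 338, 369 and 340.4 in hel2_MMS. It fell by 1.18 ± 0.09 in the wild type (adjusted p = 1.13e-07) and rose by 0.31 ± 0.09 in the deletion strain (adjusted p = 0.00731), with no overlap in either. The difference was 1.49 ± 0.13 (adjusted p = 4.42e-06), and under MMS DSE1 stood 3.93-fold higher in the deletion strain (adjusted p = 6.5e-09).

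SCW11, a glucanase-like separation gene, could not be read in the same way, because single libraries set its group means. It had 437, 434 and 418 CPM in WT, 393, 1359.9 and 372 in WT_MMS, 455, 522 and 454 in hel2 and 135, 132 and 945 in hel2_MMS. WT_MMS_2 and hel2_MMS_3 lay far above their partners, no comparison passed, and the MMS effects were 0.72 ± 0.81 (adjusted p = 0.452) and -0.24 ± 0.80 (adjusted p = 0.798). Without hel2_MMS_3 the effect in the deletion strain was -1.84 (adjusted p = 0.0125) and the difference between strains -2.56 (adjusted p = 0.0215). With both libraries left out, which was chosen after their values were seen, these were -1.84 (adjusted p = 8.26e-09) and -1.67 (adjusted p = 1.22e-05).

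The SUN family, SUN4, SIM1 and UTH1, encodes related wall proteins with a part in septation and growth. SUN4 had 952, 791 and 846 CPM in WT, 209, 159 and 156 in WT_MMS, 764, 866 and 802 in hel2 and 171, 178 and 160.2 in hel2_MMS. It fell, with log2 fold changes of -2.31 ± 0.12 in the wild type (adjusted p = 2.44e-09) and -2.26 ± 0.12 in the deletion strain (adjusted p = 1.49e-09), and the treated strains overlapped. SIM1 had 772, 646 and 668 CPM in WT, 798, 647 and 591 in WT_MMS, 611, 619 and 576 in hel2 and 106, 112 and 96.1 in hel2_MMS. It was at -0.03 ± 0.11 in the wild type (adjusted p = 0.8; 0.26 and past the threshold with library-size scaling) and fell by 2.52 ± 0.12 in the deletion strain (adjusted p = 4.19e-10). The difference was -2.49 ± 0.16 for SIM1 (adjusted p = 5.17e-07) and 0.05 ± 0.16 for SUN4 (adjusted p = 0.828; 0.31 and past the threshold with library-size scaling). The SIM1/SUN4 count ratio rose from 0.806 ± 0.0140 to 3.90 ± 0.156 in the wild type and went from 0.744 ± 0.0478 to 0.616 ± 0.0142 in the deletion strain. UTH1 was at -0.01 ± 0.13 in the wild type (adjusted p = 0.931) and fell by 0.69 ± 0.13 in the deletion strain (adjusted p = 0.000396). With library-size scaling neither its fall in the deletion strain nor its difference of -0.68 ± 0.19 (adjusted p = 0.0125) passed.

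The 3 chitin synthases each took a different course. CHS2, which lays the primary septum, had 151, 130.2 and 135 CPM in WT, 53.9, 46.2 and 42.3 in WT_MMS, 136, 132 and 127 in hel2 and 25.5, 25.0 and 27.9 in hel2_MMS. It fell in both strains without overlap, with log2 fold changes of -1.55 ± 0.09 (adjusted p = 8.61e-09) and -2.33 ± 0.10 (adjusted p = 1.18e-10), a difference of -0.78 ± 0.13 (adjusted p = 0.000551). CHS3, which makes the bud-neck ring and lateral wall chitin, had 195, 183 and 186 CPM in WT, 203, 157 and 158 in WT_MMS, 171, 172 and 168 in hel2 and 93.0, 94.4 and 92.1 in hel2_MMS. It fell by 0.87 ± 0.09 in the deletion strain (adjusted p = 1.11e-06) and was at -0.13 ± 0.09 in the wild type (adjusted p = 0.214), where it was -0.26 and past the threshold without WT_MMS_1 but 0.17 and past it with library-size scaling. CHS1, a repair synthase, had 108, 101 and 112 CPM in WT, 117, 93.4 and 105 in WT_MMS, 123, 123 and 123 in hel2 and 159, 168 and 163 in hel2_MMS. It rose by 0.41 ± 0.08 in the deletion strain (adjusted p = 0.00037) and was at -0.02 ± 0.08 in the wild type (adjusted p = 0.828; 0.28 and past the threshold with library-size scaling). The differences were -0.74 ± 0.13 for CHS3 (adjusted p = 0.000611) and 0.43 ± 0.11 for CHS1 (adjusted p = 0.00839).

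**Figure D4:**
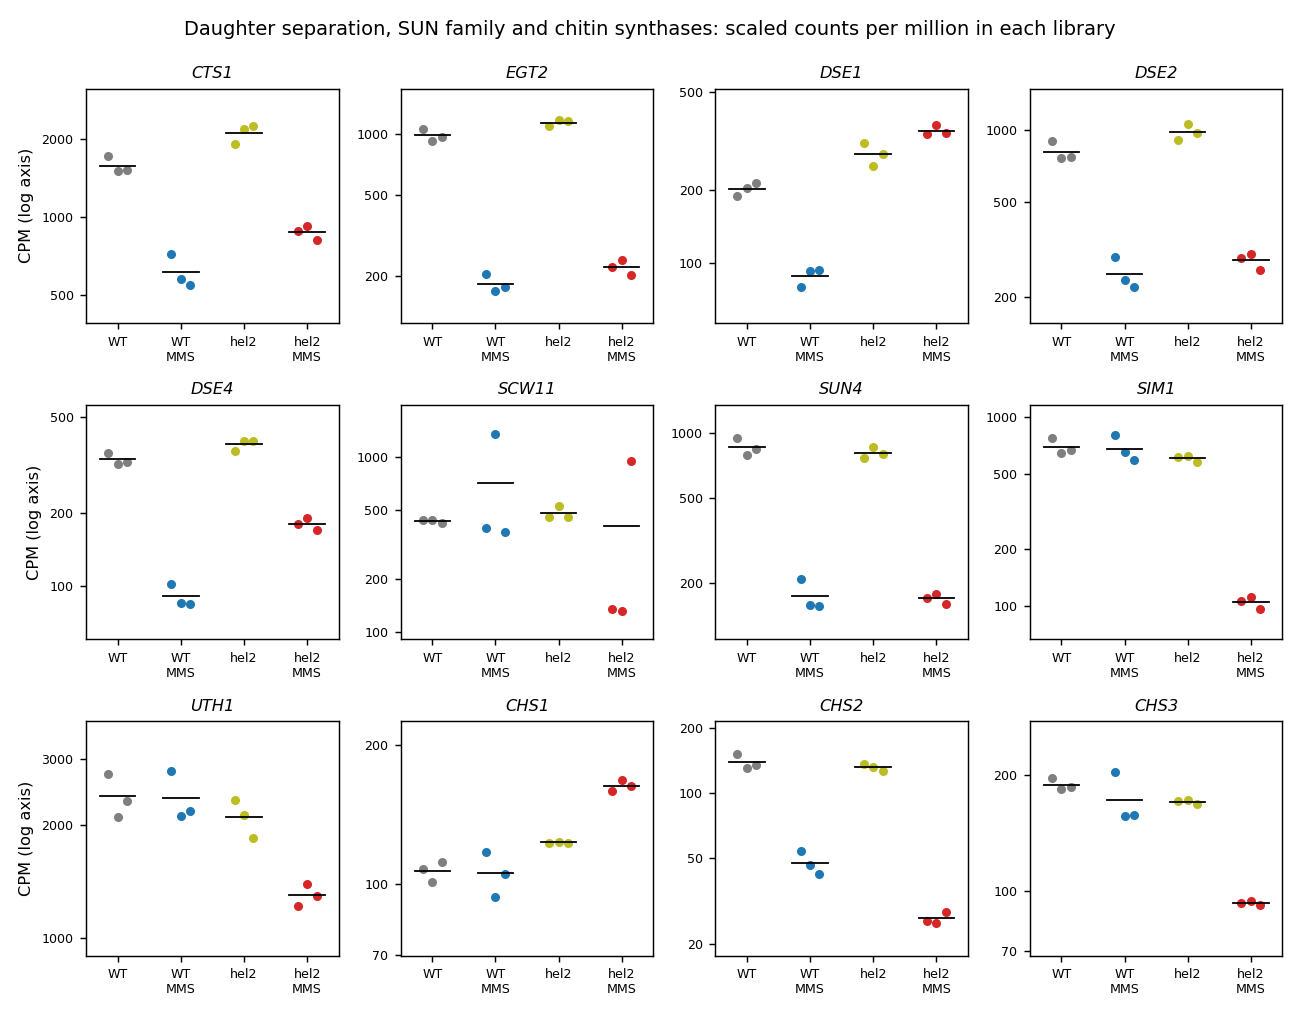
CPM (log axes, differing between panels) in each of the 12 libraries for the 12 genes of chitin synthesis and daughter separation; points are libraries in replicate order and lines are group means. EGT2, DSE2 and SUN4 are low with MMS in both strains, DSE1 falls only in the wild type, and SCW11 has 1 high library in each treated group.

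**Figure D5:**
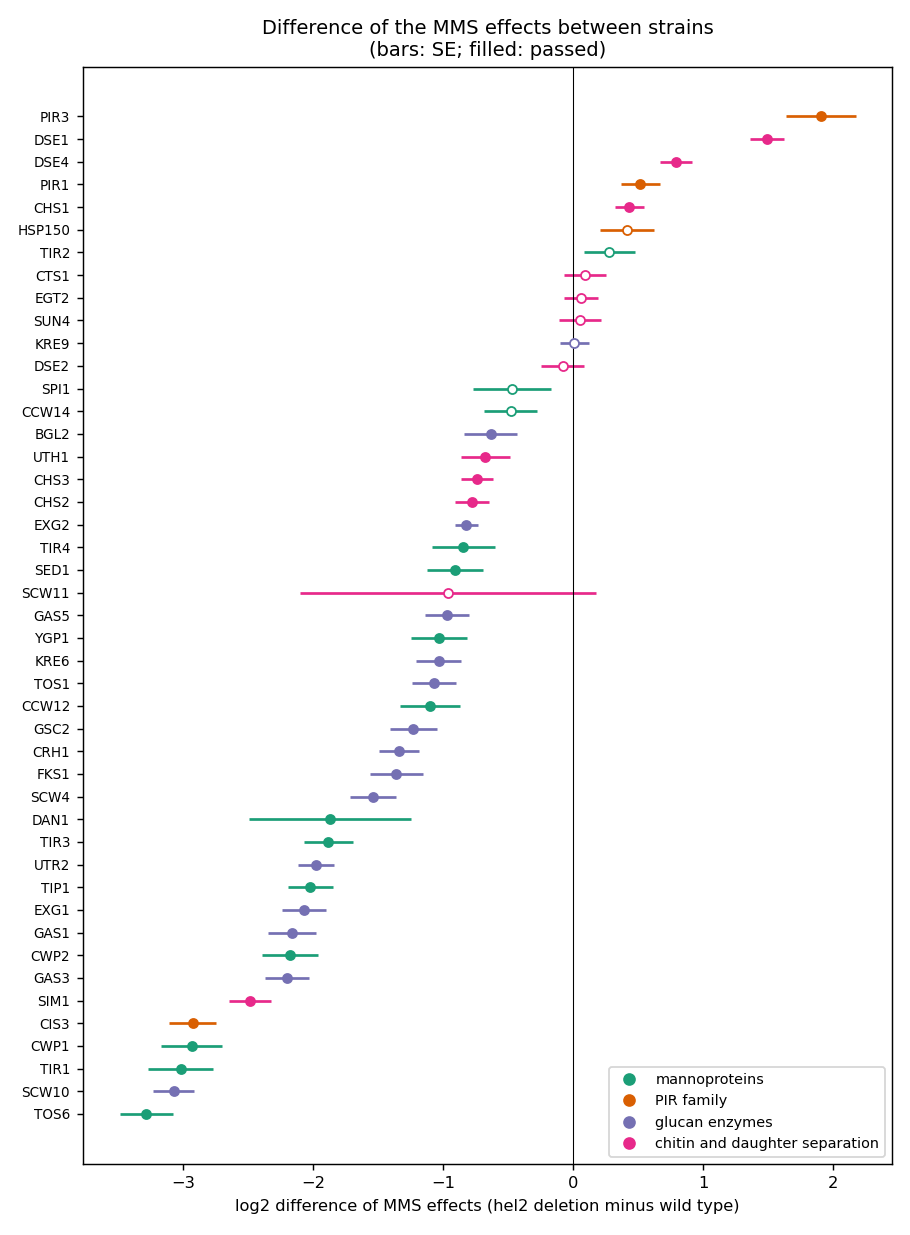
Difference of the MMS effects on the log2 scale (deletion strain minus wild type) for each of the 45 wall genes, coloured by class, with bars of 1 SE; filled points passed. The values run from -3.28 for TOS6 to 1.91 for PIR3, and SCW11 and DAN1 have the widest bars.

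Without MMS, 9 wall genes were higher in the deletion strain and 1 lower, against 5.25% and 3.33% of all genes (8.57% in either direction). Of the 9, 6 were mannoproteins. YGP1 was higher by 1.69 ± 0.16 (adjusted p = 3.09e-05), SPI1 by 1.25 ± 0.22 (adjusted p = 0.00405), GSC2 by 0.80 ± 0.13 (adjusted p = 0.00235) and DSE1 by 0.48 ± 0.09 (adjusted p = 0.00624), all with no overlap of libraries. The first 3 are also genes that MMS raised in the wild type, a comparison that shares the untreated wild type libraries. The other calls were fragile. CWP1 was higher by 0.76 ± 0.16 (adjusted p = 0.0119), a call lost when each of WT_3 and hel2_3 was left out in turn (adjusted p from 0.0512 to 0.0554). DAN1 was higher by 1.87 ± 0.44 (adjusted p = 0.0248), lost when each of WT_1, WT_2, WT_3 and hel2_3 was left out in turn (adjusted p from 0.0555 to 0.091), in a fit of the compared libraries only (adjusted p = 0.0912) and without WT_MMS_2 and hel2_MMS_3 together (adjusted p = 0.0548).

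TIR4 was higher by 0.75 ± 0.17 in the untreated deletion strain (adjusted p = 0.0165), and this was lost when each of WT_2, WT_3 and hel2_3 was left out in turn (adjusted p from 0.0564 to 0.0694) and in a fit of the compared libraries only (adjusted p = 0.0725). SED1 was higher by 0.57 ± 0.15 (adjusted p = 0.0352), lost when each of WT_2, WT_3, hel2_1, hel2_2, hel2_3, hel2_MMS_1, hel2_MMS_2 and hel2_MMS_3 was left out in turn (adjusted p from 0.0513 to 0.134) and with RLE scaling (adjusted p = 0.057). CTS1 was higher by 0.42 ± 0.11 (adjusted p = 0.0399), lost when each of WT_1, WT_2, WT_3, hel2_2, hel2_3, hel2_MMS_1, hel2_MMS_2 and hel2_MMS_3 was left out in turn (adjusted p from 0.055 to 0.148), with RLE scaling (adjusted p = 0.0759) and without WT_MMS_2 and hel2_MMS_3 together (adjusted p = 0.057). UTR2 was the only gene called lower, at -0.35 ± 0.10 (adjusted p = 0.0382), lost when each of WT_1, WT_2, WT_3, hel2_1, hel2_3, hel2_MMS_1, hel2_MMS_2 and hel2_MMS_3 was left out in turn (adjusted p from 0.0584 to 0.144) and without WT_MMS_2 and hel2_MMS_3 together (adjusted p = 0.0661). The count of higher calls fell to 5 without WT_2, 4 without WT_3 and 4 without hel2_3. Without WT_MMS_1, GAS3 and CHS3 were also called lower (-0.27 and -0.16) and CHS1 higher (0.19). With library-size scaling 13 wall genes were called higher, EGT2, DSE2, DSE4 and CHS1 being added. Over all genes that scaling called 515, 85.4% of them higher, against 554 and 61.2% with TMM.

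Against 32% of all tested genes, 22.2% of the wall genes were higher in the deletion strain than in the wild type under MMS, 10 in all. Besides YGP1 (by 0.66 ± 0.15, adjusted p = 0.00239) and SPI1, these were PIR1 (by 0.51 ± 0.11, adjusted p = 0.00128), PIR3 (by 2.07 ± 0.19, adjusted p = 1.18e-06) and HSP150 (by 0.60 ± 0.15, adjusted p = 0.00348), and the separation genes DSE1, DSE4, CTS1 and EGT2 with CHS1. CTS1 was higher by 0.51 ± 0.11 (adjusted p = 0.00182) and DSE4 by 1.00 ± 0.09 (adjusted p = 8.4e-07). EGT2 was higher by 0.27 ± 0.09 (adjusted p = 0.0248) with overlapping libraries, lost when each of WT_MMS_2, WT_MMS_3, hel2_MMS_1 and hel2_MMS_2 was left out in turn (adjusted p from 0.0552 to 0.111), with RLE scaling (adjusted p = 0.0971), with DESeq2 (adjusted p = 0.0667), in a fit of the compared libraries only (adjusted p = 0.0587) and without WT_MMS_2 and hel2_MMS_3 together (adjusted p = 0.0586). DSE2 did not pass at 0.19 ± 0.12 (adjusted p = 0.173), but did without WT_MMS_1 (adjusted p = 0.0122) and with library-size scaling. The lowest values in the deletion strain were -3.30 ± 0.16 for TOS6, -3.23 ± 0.12 for SCW10 and -3.15 ± 0.14 for CIS3. CCW14 was lower, at -0.46 ± 0.14 (adjusted p = 0.0139), -0.28 without WT_MMS_1, and did not pass with library-size scaling.

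Genes of related pathways, other wall genes and mating-type markers were read from lists drawn up for the purpose. Of 22 genes of cell wall integrity signalling, 7 rose and 3 fell with MMS in the wild type, and 7 rose and 8 fell in the deletion strain. Over all genes 35.6% rose and 34.2% fell in the wild type, and 39.2% and 36.2% in the deletion strain. These shares are the background for the TMM counts of each list here. The counts of the lists depended on the scaling. With library-size scaling 13 of these 22 rose and 2 fell in the wild type, and 14 rose and 3 fell in the deletion strain. That scaling has its own background. Of all 6463 genes it called 4352 in the wild type, 69.3% of them higher, and 4982 in the deletion strain, 74.4% higher. For the difference between strains it called 2239, 66.6% of them higher. SDP1, a phosphatase of the cascade's kinase, rose by 2.82 ± 0.13 (adjusted p = 8.77e-10) and 3.50 ± 0.13 (adjusted p = 5.68e-11), and SLT2, that kinase, by 1.54 ± 0.08 in the deletion strain (adjusted p = 1.44e-09). MTL1, a wall sensor, rose by 1.75 ± 0.12 in the wild type (adjusted p = 3.6e-08). The sensor genes WSC2, WSC3 and WSC4 had more negative effects in the deletion strain, with differences of -2.13 ± 0.18, -0.86 ± 0.15 and -1.41 ± 0.15 (adjusted p = 3.22e-06, 0.000812 and 2.27e-05).

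Of 8 genes of the transcription factor Swi5 and of the RAM network, a kinase pathway of daughter separation, 3 rose and 2 fell in the wild type, and 3 rose and 1 fell in the deletion strain. With library-size scaling 4 rose and 1 fell in the wild type, and 7 rose and 1 fell in the deletion strain. SWI5, whose product activates genes of early G1, fell, with log2 fold changes of -1.75 ± 0.15 in the wild type (adjusted p = 2.76e-07) and -1.41 ± 0.15 in the deletion strain (adjusted p = 1.29e-06). SSD1, an RNA-binding protein that the kinase Cbk1 controls, rose by 0.81 ± 0.08 (adjusted p = 1.05e-06) and 0.79 ± 0.08 (adjusted p = 9.68e-07). CBK1 itself had a more positive effect in the deletion strain, by 0.57 ± 0.14 (adjusted p = 0.00786).

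Of 14 chitin synthase partners and precursor enzymes, 9 rose and 2 fell with MMS in the wild type, and 6 rose and 2 fell in the deletion strain. With library-size scaling 10 and 13 rose and 0 fell in either. SHC1, an activator of Chs3 used in sporulation, rose by 1.57 ± 0.16 (adjusted p = 1.22e-06) and 2.80 ± 0.16 (adjusted p = 3.11e-09), and CHS5, which carries Chs3 to the surface, by 1.05 ± 0.14 in the deletion strain (adjusted p = 1.8e-05). Of 22 genes for mannosylation, 6 rose and 13 fell in the wild type, and 2 rose and 18 fell in the deletion strain, where 34.2% and 36.2% of all genes fell. A more negative effect in the deletion strain was called for 17 and a more positive one for 0 (1 without WT_MMS_2), against 21.5% and 18.6% of all genes. With library-size scaling 8 rose and 8 fell in the wild type, 4 rose and 14 fell in the deletion strain, and 13 had a more negative effect there. PSA1 and SEC53, which make the mannose donor, had log2 fold changes of -2.64 ± 0.09 and -2.61 ± 0.11 in the deletion strain (adjusted p = 4.06e-11 and 1.8e-10) and of -1.26 ± 0.09 and -1.35 ± 0.11 in the wild type (adjusted p = 4.59e-08 and 1.22e-07). The protein mannosyltransferase PMT4 had a difference of -1.68 ± 0.20 (adjusted p = 4.63e-05).

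Of 6 regulators of the anaerobic mannoproteins, 1 rose and 4 fell in each strain. The single rise in the wild type was lost with RLE scaling, in a fit of the compared libraries only and without WT_2, WT_3 or WT_MMS_1, and 2 rose in the deletion strain without WT_MMS_1, WT_MMS_2 or hel2_2 and with either other filter. With library-size scaling 1 rose and 1 fell in the wild type, and 2 rose and 2 fell in the deletion strain. ROX1, a repressor of anaerobic genes, rose by 1.06 ± 0.14 in the deletion strain (adjusted p = 1.06e-05), with a difference of 1.34 ± 0.19 (adjusted p = 0.000192). SUT1, an activator of sterol uptake without oxygen, fell, with log2 fold changes of -1.16 ± 0.08 (adjusted p = 4.84e-08) and -1.75 ± 0.09 (adjusted p = 6.29e-10). Among 38 other wall genes, 23 rose and 7 fell in the wild type, and 17 rose and 13 fell in the deletion strain. With library-size scaling 25 rose and 4 fell in the wild type, and 25 rose and 6 fell in the deletion strain. A more negative effect in the deletion strain was called for 15, and a more positive one for 1 (2 without WT_1, WT_MMS_2 or hel2_1, with DESeq2, with limma-voom and without WT_MMS_2 and hel2_MMS_3 together; 4 with library-size scaling). YPS6, a wall protease of the yapsin family, rose by 4.05 ± 0.18 (adjusted p = 7.39e-10) and 4.08 ± 0.18 (adjusted p = 2.56e-10). SRL1, a wall mannoprotein, fell by 3.03 ± 0.12 in the deletion strain (adjusted p = 8.9e-11), and ECM33, an anchored protein needed for wall order, had a difference of -2.24 ± 0.23 (adjusted p = 1.33e-05). Of 6 a-cell markers, 0 rose and 4 fell with MMS in the wild type, and 1 rose and 5 fell in the deletion strain. This fall depended on the scaling, since with library-size scaling 2 rose and 1 fell in the wild type, and 1 rose and 1 fell in the deletion strain; without WT_2, 1 rose in the wild type. Of 4 alpha-cell markers 2 rose and 0 fell in each strain, and 1 rose in the wild type without WT_MMS_2.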

How the data were processed

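The authors deposited raw read counts per gene in a single table. Per the submitters' processing notes, the tools were STAR 2.5.1a, featureCounts 1.4.6-p5 of Subread, and Salmon. For genome build, annotation release, strand setting and multiply aligned reads, details were not given in the sources used here, so reads of close relatives or overlapping genes may be split between them. The 7230 lines held 7109 identifiers, 97 of them on several lines with equal counts, used once. Of the 45 wall genes, 21 are named in the table; symbols of the others were matched by locus tag to RefSeq assembly R64, used only for names and neighbours.

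Counts were scaled by TMM, filtered with filterByExpr and tested with edgeR 4.0.16 in R 4.3.3 (robust quasi-likelihood, 12 libraries, no block); the SE is the size of the change over the square root of F. The procedure was tested on simulated data in which only a small part of the genes changed. That test does not cover scaling where most genes change, as with MMS here. Named genes are all 45, HEL2, LEU2 and, from 8 lists, a choice among up to 3 genes per comparison that passed with the largest change and had a mean log2 CPM of 2 or more; the 8 lists include both mating-type marker lists. A gene of these lists is not reported here and is left out of its list's counts. Members, classes and lists were chosen with earlier results of these data known. Alternatives were RLE and library-size scaling, DESeq2 1.42.0, limma-voom (limma 3.58.1), other filters, a replicate block, the compared libraries alone and leaving out each library; one without WT_MMS_2 and hel2_MMS_3, and the recomputation of the lists, were added after the data were seen.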

Additional observations from a re-analysis of the deposited data

Results flagged for a closer look

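For 35 of the 45 wall genes the test of the difference of MMS effects between strains passed, which put them here; 40% of all tested genes did. Values are log2 differences, deletion strain minus wild type. Among the mannoproteins they were -2.94 for CWP1, -2.18 for CWP2, -3.02 for TIR1, -1.88 for TIR3, -0.85 for TIR4, -1.87 for DAN1, -2.02 for TIP1, -0.91 for SED1, -1.03 for YGP1, -1.11 for CCW12 and -3.28 for TOS6. In the PIR family they were 0.52 for PIR1, 1.91 for PIR3 and -2.93 for CIS3.

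Among the glucan genes the differences were -1.54 for SCW4, -3.08 for SCW10, -0.64 for BGL2, -2.16 for GAS1, -2.21 for GAS3, -0.97 for GAS5, -2.07 for EXG1, -0.82 for EXG2, -1.34 for CRH1, -1.98 for UTR2, -1.07 for TOS1, -1.36 for FKS1, -1.23 for GSC2 and -1.04 for KRE6. Among the chitin and separation genes they were 1.49 for DSE1, 0.79 for DSE4, -2.49 for SIM1, -0.68 for UTH1, 0.43 for CHS1, -0.78 for CHS2 and -0.74 for CHS3.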

How the results depend on the processing

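Scaling by library size alone shifted the median of all genes to 0.33 for MMS in the wild type, 0.61 in the deletion strain, 0.11 and 0.37 between untreated and treated strains, and 0.23 for the difference, so changes in this text are relative to the TMM-scaled bulk of genes. The share of called genes that were higher moved with it, in that order from 51%, 52%, 61.2%, 51.8% and 46.4% to 69.3%, 74.4%, 85.4%, 76.2% and 66.6%. Wall genes called higher and lower became 23 and 15, 15 and 28, 13 and 1, 14 and 24, and 10 and 28. All genes called in either direction became 4352, 4982, 515, 4127 and 2239. Of the wall genes, values that changed sign and passed under library-size scaling, none of them calls under TMM, were 0.24 for CIS3, 0.27 for FKS1, 0.26 for SIM1, 0.28 for CHS1 and 0.17 for CHS3 (MMS in the wild type), 0.51 for BGL2, 0.54 for GAS5 and 0.41 for KRE6 (MMS in the deletion strain), and 0.27 for KRE9 and 0.32 for SUN4 (between treated strains). The a-cell marker STE2 in the deletion strain went from -0.53 to 0.028.

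Leaving out 1 library at a time gave 13 to 15 higher and 15 to 20 lower for MMS in the wild type, 10 to 11 and 29 to 30 in the deletion strain, 4 to 10 and 0 to 3 between untreated strains, 9 to 11 and 27 to 28 between treated strains, and 5 to 7 and 28 to 30 for the difference. The single lower call between untreated strains was 0 without WT_MMS_2 and hel2_MMS_3 together. Over all genes that comparison called 554, but 305 to 373 without any 1 of its 6 libraries, 1163 without WT_MMS_1 and 839 with DESeq2. DESeq2 gave no adjusted p for SCW11. The cause of these changes was not tested.

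Replicate numbers were not shown to pair libraries. Of 18 pairs of the same number, 1 had a correlation of deviations over 0.1 (range -0.38 to 0.24), and 3 of 12 libraries deviated most like their own number. With the replicate block the wall genes called higher and lower were 14 and 17, 10 and 29, 7 and 0, 10 and 27, and 5 and 29. Over all genes the block called 4392, 4799, 402, 3836 and 2378, against 4515, 4874, 554, 3999 and 2587 without it. The lowest count of a wall gene in a library was 85, so counting error is largest for DAN1 and small for most others. The number of libraries, 3 per group, limits the smaller changes.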

Other observations

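SCW11 was the only wall gene with at least 5 CPM in a library and over 2 times the level of both its partners. The genes on either side of it did not share its high values. CGR1 had 16.0, 11.0 and 10.5 CPM in the treated wild type and 9.56, 7.38 and 8.53 in the treated deletion strain, and CWH41 had 110, 113 and 119 and 87.8, 91.4 and 92.9. Over all genes 20 were high by this measure in WT_MMS_2 and 20 in hel2_MMS_3, 5 of them in both, where the other libraries had 7 to 23. This was looked at after the values of SCW11 were seen.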
